A study of Homo sapiens with 9 samples.

Results

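Solute carriers are membrane proteins that move sugars, amino acids, ions, metals, vitamins and metabolites across the plasma membrane and the membranes of organelles. The genes described here carry a symbol made of SLC, a family number, the letter A and a member number, and were chosen by their counts, with at least 450 summed over the 9 libraries. Of 338 such symbols listed, 159 reached this sum, and the other 179 did not, of which 67 had no count at all. The values that chose the members were these summed counts, so that a high level is a property of the choice and no finding, whereas no difference between the cell lines was used. All 159 also passed the filter for testing (10 counts over the 9 libraries). At the edge of the choice, SLC28A3, a concentrative nucleoside transporter, was the member with the fewest counts (472), and SLC43A1, which carries neutral amino acids, lay just below it with 421. With 150 counts asked of each line alone, 156 members reached it in all 3 lines, and SLC5A1, SLC28A3 and SLC39A5 in only 2 of them. SLC5A1 fell short in LIM1215-parental and SLC39A5 in LIM1215-R1, so that both owe their place to the lines where they were high.

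PolyA RNA of LIM1215 cells, a colorectal cancer cell line, was sequenced from 3 cell lines with 3 libraries each, all sampled in untreated culture. LIM1215-parental, with wild-type RAS, was grown without cetuximab, an antibody against EGFR, next to the other lines. LIM1215-R1 and LIM1215-R2 had each been selected from the parental cells, in parallel, under a rising cetuximab concentration over months, and are mixed populations and not single clones. According to the study, a subpopulation of each resistant line carries an activating HRAS mutation, which was not examined here. The replicates are described as technical, so that all p-values measure the spread between these libraries only, and each resistant line stands for 1 selection.

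Libraries held 13737416 to 18725014 counts, and the members took 1.23% to 1.27% of them in LIM1215-parental, 1.38% to 1.43% in LIM1215-R1 and 1.43% to 1.44% in LIM1215-R2. Levels are CPM with TMM scaling, that is, counts relative to the scaled total of a library. In these terms, 3 counts in a library correspond to 0.158 to 0.217 CPM. Of 12 colorectal epithelial markers 11 were detected, with summed levels of 13020 to 13412, 17146 to 17509 and 15672 to 16095 CPM in LIM1215-parental, LIM1215-R1 and LIM1215-R2, and KRT20 stood at 0. The summed levels of 6 fibroblast markers (1.19 to 3.19 CPM), 4 immune markers (7.08 to 14.2 CPM) and 3 endothelial markers (0 to 0.722 CPM) were low, and COL1A2, PTPRC and CD3E stood at 0. The epithelial sum, mostly KRT8 and KRT18, was higher in both resistant lines, but the list went both ways. Of 11 tested markers, 5 were higher and 4 lower in LIM1215-R1, and 6 and 4 in LIM1215-R2. The lower ones in both were EPCAM (log2 fold changes -0.26 and -0.32), CDX1 (-0.85 and -0.65), CDX2 (-0.44 and -0.54) and LGALS4 (-0.23 and -0.37). The part of these markers in the differences given below was not tested. Of the genes named below, SLC2A3, SLC6A6, SLC7A5, SLC9A3, SLC16A1, SLC20A1, SLC25A1, SLC25A3, SLC25A5, SLC25A24 and SLC25A39 have listed pseudogenes, which makes their counts less certain. In bulk RNA, fewer cells of a type and less RNA per cell cannot be told apart.

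Solute carriers use a few modes of work. Facilitative carriers such as the GLUT proteins of the SLC2 family let a solute run down its gradient, cotransporters such as SGLT1 draw on the sodium gradient kept by the sodium pump, and exchangers swap a solute for another. In the gut epithelium they absorb nutrients, salt and metals, and in tumour cells the carriers of glucose, glutamine, cystine and lactate are known for feeding growth and redox balance.

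Sequences are shown for the members with the largest rise (SLC5A1) and the largest fall (SLC39A5), and for the main glucose carrier SLC2A1, as the regions before the starts of the genes that the results turn on. Each is the 250 bases before the annotated start in RefSeq (GRCh38.p14), 5′ to 3′ on the strand of the gene, for SLC5A1 at chr22:32043011-32043260, plus strand, for SLC39A5 at chr12:56229801-56230050, plus strand and for SLC2A1 at chr1:42958869-42959118, minus strand. Capitals mark the GC box (GGGCGG), the TATA box (TATAAA) and the HNF1 half-site (GTTAAT), each in either direction.
SLC5A1: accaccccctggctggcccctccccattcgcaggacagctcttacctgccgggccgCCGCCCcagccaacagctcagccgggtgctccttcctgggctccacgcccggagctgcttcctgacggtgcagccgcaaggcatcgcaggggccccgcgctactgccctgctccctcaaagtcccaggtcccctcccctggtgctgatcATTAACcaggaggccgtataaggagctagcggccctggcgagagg
SLC39A5: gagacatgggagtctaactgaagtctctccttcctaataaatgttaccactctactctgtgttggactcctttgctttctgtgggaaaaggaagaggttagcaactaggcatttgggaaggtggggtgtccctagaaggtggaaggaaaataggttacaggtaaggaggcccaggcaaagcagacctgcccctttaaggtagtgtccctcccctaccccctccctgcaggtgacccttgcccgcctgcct
SLC2A1: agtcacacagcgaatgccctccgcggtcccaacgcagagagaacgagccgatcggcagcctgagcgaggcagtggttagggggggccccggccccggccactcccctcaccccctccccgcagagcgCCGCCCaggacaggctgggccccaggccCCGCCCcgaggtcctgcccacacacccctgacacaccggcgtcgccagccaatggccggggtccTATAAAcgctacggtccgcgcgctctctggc
SLC5A1 held 1 GC box and 1 HNF1 half-site, SLC2A1 held 2 GC boxes and 1 TATA box, and none of the 7 searched motifs was in the SLC39A5 window. Promoter windows matched 130 of the 159 members. A GC box was present in 70.8% of these and in 42.3% of all 27305 windows of this length, and the median GC content was 66.2% and 58.0%. An E box (CACGTG) was present in 11.5% of the members' windows and 6.49% of all, and the hypoxia response element core (ACGTG), which every E box of these letters also holds, in 23.1% and 18.7%. The shares were 4.62% and 4.16% for the AP-1 site (TGACTCA), 2.31% and 3.19% for the amino acid response element core (TGATGNAA), 4.62% and 11.1% for the TATA box, and 6.15% and 6.22% for the HNF1 half-site. These matches describe letters in a window and are no evidence of binding. The share over all windows covers genes of any level, and the HNF1 half-site was added to the search after the sequences had been read.

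To see how far the carriers lie apart in level, CPM was divided by the length of the canonical transcript. Members ranged from 0.651 to 346 CPM per kb, with a median of 11.5. The most abundant in every line was SLC25A5, the main ADP/ATP exchanger of dividing cells, at 315 ± 1.44, 371 ± 18.4 and 351 ± 2.41 CPM per kb (SD, n = 3) in LIM1215-parental, LIM1215-R1 and LIM1215-R2. In LIM1215-parental it was followed by SLC29A1, an equilibrative nucleoside transporter, at 218 ± 16.1, SLC7A5 at 201 ± 15.6, SLC25A39, the mitochondrial glutathione carrier, at 190.5 ± 20.8, SLC3A2 at 143 ± 2.41 and SLC2A1 at 120.5 ± 8.05. There the means of SLC29A1 and SLC7A5, and those of SLC7A5 and SLC25A39, differed by less than the sum of their SDs. In the resistant lines SLC7A5 stood in the second place, at 287 ± 22.7 and 332 ± 9.02, SLC2A1 in the third, at 266 ± 15.6 and 211 ± 5.98, and SLC29A1 in the sixth, at 146 ± 13.1 and 154 ± 3.57 CPM per kb. In LIM1215-R1, SLC7A5 and SLC2A1, and SLC29A1 and the next in order, SLC1A5 (131 ± 6.67 CPM per kb), did not differ beyond that spread either. In LIM1215-R2 the same held for SLC2A1 and SLC25A39 (210.5 ± 9.77 CPM per kb), and for SLC25A39 and SLC3A2 (198 ± 7.09). Between replicates, the coefficient of variation of a member had a median of 5.65%.

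LIM1215-R1 was compared with LIM1215-parental, to find carriers that differ after selection under cetuximab. A member was called higher or lower at an adjusted p of at most 0.01 in edgeR's quasi-likelihood test, with p-values adjusted after Benjamini and Hochberg over the 19102 genes tested. A differentially expressed gene (DEG) also needed a log2 fold change of at least 1.5 in size. In LIM1215-R1, 55 members (34.6%) were higher, 28 (17.6%) lower, and 76 did not pass. Over all genes tested 14% were higher and 13.4% lower, and over the 10936 genes that also had at least 450 counts 20% and 19.8%. DEGs numbered 4 higher (2.52%) and 1 lower (0.629%), against 3.24% and 1.91% of all genes tested, and 2.09% and 0.86% of those with at least 450 counts. SLC5A1 and SLC39A5 were among these DEGs and owe their place to the lines where they were high, so that these shares support nothing about the members. The median log2 fold change of the members was 0.089, against -0.011 over all genes tested. The median size of their change was 0.24, against 0.30 over all genes tested and 0.19 over genes with at least 450 counts.

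In LIM1215-R2 against LIM1215-parental, 47 members (29.6%) were higher, 27 (17%) lower, and 85 did not pass. The background was 12.3% higher and 11.6% lower over all genes tested, and 17.9% and 16.8% over genes with at least 450 counts. There were 3 DEGs higher and 3 lower (1.89% each), beside 2.63% and 2.19% of all genes tested, and 1.91% and 1.08% of those with at least 450 counts. SLC5A1 and SLC39A5 were among the DEGs here too, with the same limit. The median log2 fold change was 0.10, against -0.0037 over all genes tested. Both comparisons use the same 3 parental libraries, so that their values stand side by side and are not independent of each other.

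**Figure D1:**
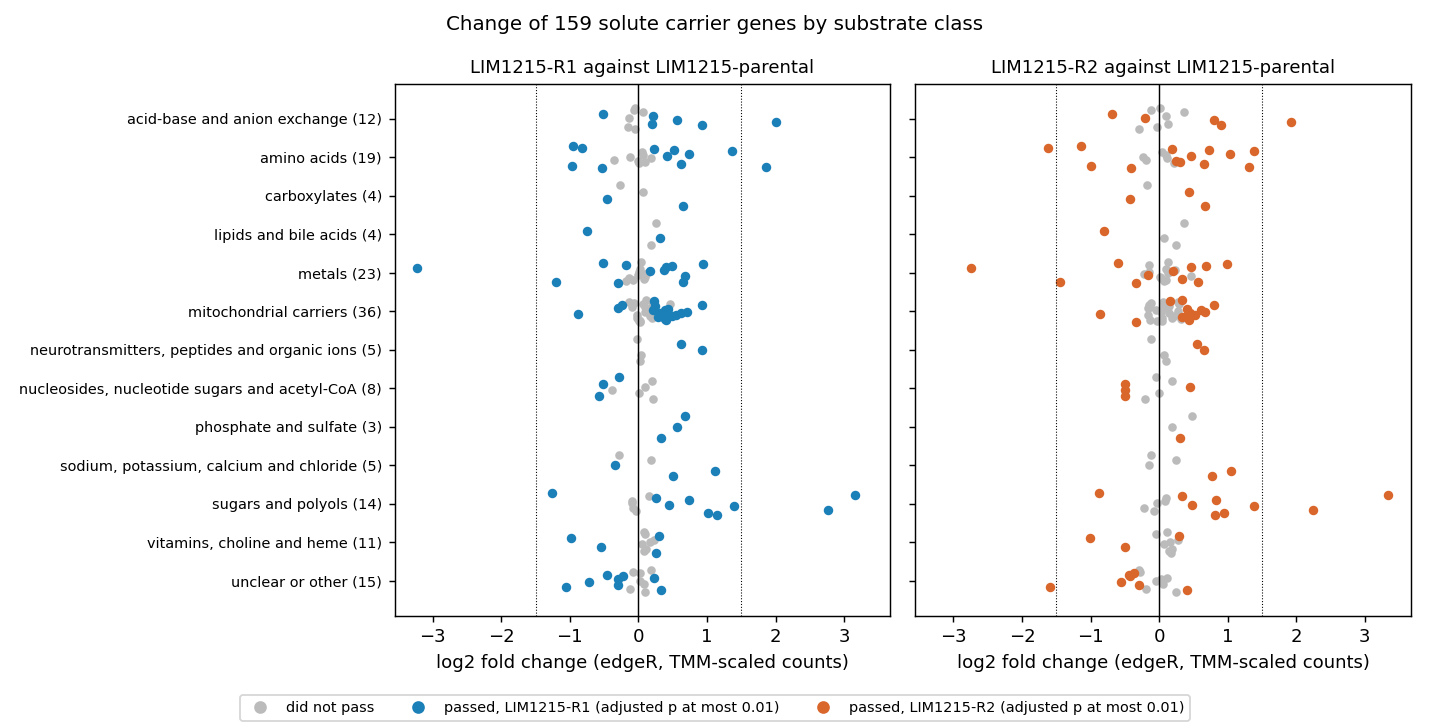
Log2 fold change of each of the 159 members (1 point per gene) against LIM1215-parental, for LIM1215-R1 (left) and LIM1215-R2 (right), by substrate class with the number of members in brackets, coloured where adjusted p was at most 0.01 and grey otherwise. Dotted lines mark a log2 fold change of 1.5 in size, which 5 called members reached in LIM1215-R1 and 6 in LIM1215-R2. Sugar carriers lay mostly to the right of 0, and SLC39A5 lay farthest to the left, among the metals.

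By substrate, the summed levels of the 13 classes moved unequally. The summed level of the sugar and polyol carriers was 961 ± 31.2, 1467 ± 53.1 and 1306 ± 16.7 CPM (SD, n = 3) in LIM1215-parental, LIM1215-R1 and LIM1215-R2, that of the amino acid carriers 3058 ± 96.5, 3845 ± 125 and 4224 ± 27.8, and that of the sodium, potassium, calcium and chloride carriers 429 ± 13.3, 589 ± 25.7 and 699.9 ± 34.1. Nucleoside, nucleotide sugar and acetyl-CoA carriers went the other way, with 747 ± 31.1, 578 ± 26.9 and 621 ± 8.23 CPM. Vitamin, choline and heme carriers overlapped between the lines at 826 ± 29.9, 837 ± 38.4 and 841 ± 17. A class sum is led by its most abundant members, as the carboxylates show, whose sums of 298 ± 4.54, 443 ± 12.6 and 449.4 ± 7.95 CPM were mostly SLC16A1. Likewise, most of the shift in the sugar sums was that of SLC2A1. SLC12A2 held most of it in the sodium to chloride sums, and SLC29A1 in the nucleoside sums. These sums were not tested. Counts of called members by class, given below, stand beside the shares over genes with at least 450 counts, 20% higher and 19.8% lower in LIM1215-R1 and 17.9% and 16.8% in LIM1215-R2. A share near these is no result about a class, and a class of few members allows little to be read from its count.

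**Figure D2:**
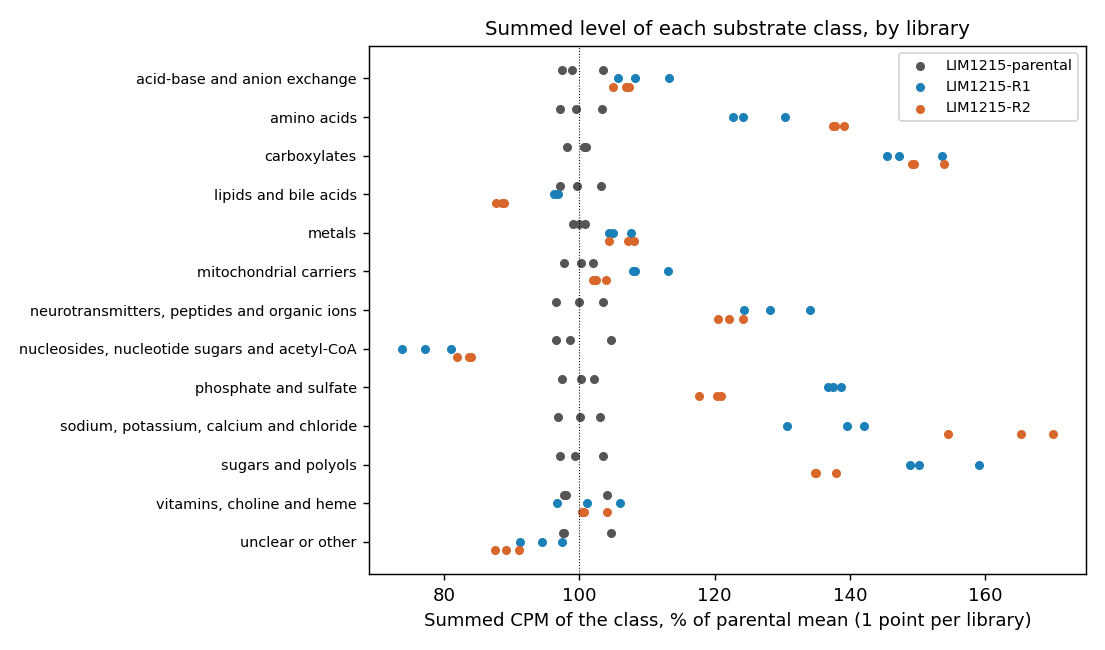
Summed CPM of each substrate class as a percentage of its LIM1215-parental mean, 1 point per library (grey LIM1215-parental, blue LIM1215-R1, orange LIM1215-R2). In all 6 resistant libraries the acid-base, amino acid, carboxylate, metal, mitochondrial, neurotransmitter, phosphate, sodium to chloride and sugar classes lie above every parental library. The nucleoside, lipid and unclear classes lie below every parental library there, the lipid and unclear classes narrowly, and the vitamin class overlaps. The mitochondrial class is narrow too, with libraries from 2786.3 CPM in LIM1215-R2 and up to 2784.6 CPM in LIM1215-parental.

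Glucose carriers changed in both modes of transport. Of the 14 sugar and polyol carriers, 8 were higher and 1 lower in LIM1215-R1, and 8 and 1 in LIM1215-R2, with median log2 fold changes of 0.35 and 0.41. SLC5A1 (chr22:32043261-32113029, GRCh38) encodes SGLT1, the sodium-glucose cotransporter of the intestinal brush border, and its level was 2.36, 1.73 and 2.52 CPM in LIM1215-parental, 20.8, 21.3 and 17.9 in LIM1215-R1 and 22.1, 21.6 and 24.5 in LIM1215-R2. Every resistant library lay far above the parental ones. SLC5A1 owes its place among the members to the resistant lines, so that its rise describes this gene and is no support for the class. The level was 8.9-fold higher in LIM1215-R1 and 10.1-fold higher in LIM1215-R2. Against LIM1215-parental, SLC5A1 differed by 3.15 on the log2 scale in LIM1215-R1 (SE 0.136, edgeR adjusted p = 1.4e-16) and by 3.34 in LIM1215-R2 (SE 0.134, edgeR adjusted p = 2.88e-17).

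SLC2A3 (chr12:7919230-7936187), the high-affinity glucose carrier GLUT3, stood at 7.32, 6.94 and 6.67 CPM in LIM1215-parental, 51, 45 and 46.6 in LIM1215-R1 and 33.9, 32.5 and 32.5 in LIM1215-R2. The 3 groups did not overlap, and LIM1215-R1 was the highest. For SLC2A3 the fit gave log2 fold changes of 2.77 (LIM1215-R1, SE 0.0877, edgeR adjusted p = 1.8e-19) and 2.24 (LIM1215-R2, SE 0.0908, edgeR adjusted p = 3.21e-17). SLC2A3 has a near-identical copy, SLC2A14, which was listed with 2 counts over the 9 libraries, and reads of the pair cannot be told apart with certainty. SLC2A1 (chr1:42925353-42958868), the widespread glucose carrier GLUT1, was at 399, 438 and 386 CPM in LIM1215-parental, 856, 958 and 883 in LIM1215-R1 and 696, 712 and 736 in LIM1215-R2. All resistant libraries were above the parental ones, by 2.21-fold in LIM1215-R1 and 1.75-fold in LIM1215-R2. SLC2A1 had a log2 fold change of 1.14 for LIM1215-R1 (SE 0.0472, edgeR adjusted p = 5.17e-17) and 0.81 for LIM1215-R2 (SE 0.047, edgeR adjusted p = 7.96e-14).

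Other sugar carriers rose as well. SLC2A9, a urate carrier of the GLUT family, was at 4.6, 3.03 and 2.89 CPM in LIM1215-parental, 9.32, 9.04 and 9.26 in LIM1215-R1 and 8.62, 9.54 and 9.41 in LIM1215-R2. Against LIM1215-parental, SLC2A9 differed by 1.39 on the log2 scale in LIM1215-R1 (SE 0.152, edgeR adjusted p = 2.64e-08) and by 1.38 in LIM1215-R2 (SE 0.152, edgeR adjusted p = 2.75e-08). The 6 resistant libraries lay close together and above the parental ones, of which replicate 1 was the highest. SLC2A12, known as GLUT12, was at 12 ± 0.722, 24.3 ± 1.26 and 23.2 ± 2.27 CPM (SD, n = 3) in LIM1215-parental, LIM1215-R1 and LIM1215-R2. For SLC2A12 the fit gave log2 fold changes of 1.02 (LIM1215-R1, SE 0.0941, edgeR adjusted p = 1.11e-09) and 0.95 (LIM1215-R2, SE 0.0946, edgeR adjusted p = 4.6e-09). SLC37A1, a glucose-6-phosphate carrier of the endoplasmic reticulum, was at 110.2 ± 5.35, 150.4 ± 3.49 and 154 ± 2.35 CPM (SD, n = 3) in LIM1215-parental, LIM1215-R1 and LIM1215-R2, with log2 fold changes of 0.45 in LIM1215-R1 and 0.49 in LIM1215-R2 (edgeR adjusted p = 3.14e-08 and 7.59e-09), and those of SLC45A3 were 0.74 in LIM1215-R1 and 0.83 in LIM1215-R2 (edgeR adjusted p = 2.66e-06 and 3.53e-07).

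The exception in the class was SLC5A3 (chr21:34073578-34106260), the sodium-coupled carrier of myo-inositol, which fell. Its level was 199.7, 171 and 195 CPM in LIM1215-parental, 86.6, 72.7 and 78.1 in LIM1215-R1 and 109, 103 and 95.6 in LIM1215-R2. The groups did not overlap, LIM1215-R1 was the lowest, and the level was 2.39-fold lower there and 1.84-fold lower in LIM1215-R2. SLC5A3 had a log2 fold change of -1.25 for LIM1215-R1 (SE 0.0658, edgeR adjusted p = 9.39e-15) and -0.88 for LIM1215-R2 (SE 0.0646, edgeR adjusted p = 1.17e-11). SLC5A1 and SLC5A3, of the same family, thus moved in opposite directions.

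**Figure D3:**
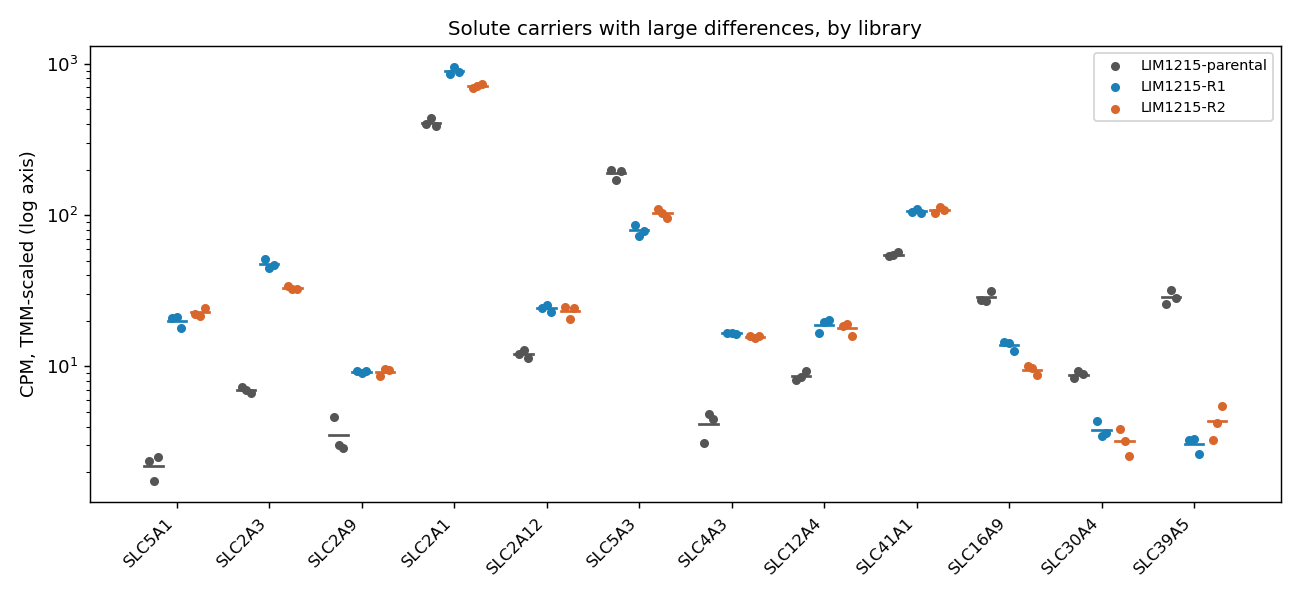
CPM of 12 members with large differences, on a log axis, with 1 point per library and a bar at the mean of each line (grey LIM1215-parental, blue LIM1215-R1, orange LIM1215-R2). In each gene the 3 parental libraries lie apart from the 6 resistant ones, above them for SLC5A3, SLC16A9, SLC30A4 and SLC39A5 and below them for the other 8.

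Amino acid carriers moved in both directions. Of 19, 7 (36.8%) were higher and 4 (21.1%) lower in LIM1215-R1, and 9 (47.4%) and 4 (21.1%) in LIM1215-R2, so that the lower share was near that of genes with at least 450 counts (19.8% and 16.8%). SLC7A5 (chr16:87830023-87869507), the light chain LAT1 that brings in leucine and other large neutral amino acids, was at 889.8, 995 and 859.9 CPM in LIM1215-parental, 1214, 1419.5 and 1294 in LIM1215-R1 and 1474, 1508 and 1555 in LIM1215-R2. Against LIM1215-parental, SLC7A5 differed by 0.52 on the log2 scale in LIM1215-R1 (SE 0.0494, edgeR adjusted p = 2.08e-09) and by 0.73 in LIM1215-R2 (SE 0.0495, edgeR adjusted p = 2.36e-12). The lines did not overlap. SLC3A2, the heavy chain CD98 that LAT1 and xCT need to reach the surface, was at 269, 275 and 266 CPM in LIM1215-parental, 342, 386 and 357 in LIM1215-R1 and 366, 366 and 389 in LIM1215-R2, higher than parental in all 6 resistant libraries. For SLC3A2 the fit gave log2 fold changes of 0.42 (LIM1215-R1, SE 0.0461, edgeR adjusted p = 2.72e-08) and 0.47 (LIM1215-R2, SE 0.0461, edgeR adjusted p = 3.78e-09).

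SLC1A5, the glutamine carrier ASCT2, was at 245 ± 11.6, 376 ± 19.2 and 387 ± 11 CPM (SD, n = 3) in LIM1215-parental, LIM1215-R1 and LIM1215-R2. SLC1A5 had a log2 fold change of 0.62 for LIM1215-R1 (SE 0.0466, edgeR adjusted p = 1.83e-11) and 0.66 for LIM1215-R2 (SE 0.0466, edgeR adjusted p = 4.99e-12). SLC7A11 (chr4:138164097-138242349), the light chain xCT that imports cystine in exchange for glutamate, was at 38.3, 36.4 and 37.9 CPM in LIM1215-parental, 102, 86.1 and 101 in LIM1215-R1 and 104, 98.1 and 92.6 in LIM1215-R2. This was 2.57-fold and 2.62-fold above LIM1215-parental, with overlap between the resistant lines only. Against LIM1215-parental, SLC7A11 differed by 1.36 on the log2 scale in LIM1215-R1 (SE 0.0685, edgeR adjusted p = 3.72e-15) and by 1.39 in LIM1215-R2 (SE 0.0684, edgeR adjusted p = 2.42e-15). SLC1A3 (chr5:36596588-36688334), which takes up glutamate and aspartate, rose 3.64-fold in LIM1215-R1, where it was a DEG, and 2.47-fold in LIM1215-R2, its levels being 20.2, 14.9 and 17.4 CPM in LIM1215-parental, 66.3, 64.1 and 61.9 in LIM1215-R1 and 43.1, 44.6 and 42.6 in LIM1215-R2. For SLC1A3 the fit gave log2 fold changes of 1.86 (LIM1215-R1, SE 0.0802, edgeR adjusted p = 1.24e-16) and 1.30 (LIM1215-R2, SE 0.0826, edgeR adjusted p = 5.1e-13).

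SLC6A20 (chr3:45755449-45796536), the intestinal and renal carrier of proline, had replicates that lay very close together, at 224, 224 and 222 CPM in LIM1215-parental, 373, 378 and 363 in LIM1215-R1 and 464, 442 and 459.7 in LIM1215-R2. SLC6A20 had a log2 fold change of 0.74 for LIM1215-R1 (SE 0.041, edgeR adjusted p = 3.5e-14) and 1.03 for LIM1215-R2 (SE 0.0411, edgeR adjusted p = 2.42e-17). LIM1215-R2 was the highest and no line overlapped another. The glutamine carriers SLC38A1 and SLC38A2 passed in LIM1215-R2 and not in LIM1215-R1. SLC38A1 was at 441 ± 19.4, 469 ± 32.9 and 545 ± 23 CPM (SD, n = 3) in LIM1215-parental, LIM1215-R1 and LIM1215-R2, with log2 fold changes of 0.09 in LIM1215-R1 and 0.31 in LIM1215-R2 (edgeR adjusted p = 0.158 and 8.65e-06). SLC38A2 was at 128 ± 5.27, 128 ± 5.57 and 152 ± 4.64 CPM (SD, n = 3) in LIM1215-parental, LIM1215-R1 and LIM1215-R2, with log2 fold changes of 0.00 in LIM1215-R1 and 0.24 in LIM1215-R2 (edgeR adjusted p = 0.97 and 0.000494).

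Among the amino acid carriers that fell were the light chains of other exchangers. SLC7A7 (chr14:22773222-22819791), the y+LAT1 light chain for cationic amino acids, was at 26.1, 29.5 and 29.6 CPM in LIM1215-parental, 16.2, 16.6 and 15.3 in LIM1215-R1 and 8.44, 9.91 and 9.34 in LIM1215-R2. It stepped down from LIM1215-parental over LIM1215-R1 to LIM1215-R2 with no overlap, to 3.07-fold lower in LIM1215-R2, where it was a DEG. Against LIM1215-parental, SLC7A7 differed by -0.82 on the log2 scale in LIM1215-R1 (SE 0.0873, edgeR adjusted p = 1.5e-08) and by -1.62 in LIM1215-R2 (SE 0.0947, edgeR adjusted p = 9.16e-14). SLC7A8 (chr14:23125295-23183660), the LAT2 light chain for neutral amino acids and a neighbour on the same chromosome with 305503 bases between the 2 genes, was at 116, 121 and 113 CPM in LIM1215-parental, 58.6, 63.1 and 58.1 in LIM1215-R1 and 52.7, 54.6 and 51 in LIM1215-R2. For SLC7A8 the fit gave log2 fold changes of -0.96 (LIM1215-R1, SE 0.0563, edgeR adjusted p = 1.01e-13) and -1.14 (LIM1215-R2, SE 0.0569, edgeR adjusted p = 3.1e-15). SLC1A4, the ASCT1 carrier of alanine, serine and cysteine, was at 83.4 ± 2.74, 42.4 ± 1.21 and 42 ± 2.07 CPM (SD, n = 3) in LIM1215-parental, LIM1215-R1 and LIM1215-R2 and 1.96-fold and 1.98-fold lower. SLC1A4 had a log2 fold change of -0.97 for LIM1215-R1 (SE 0.0603, edgeR adjusted p = 3.22e-13) and -0.99 for LIM1215-R2 (SE 0.0604, edgeR adjusted p = 2.39e-13).

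**Figure D4:**
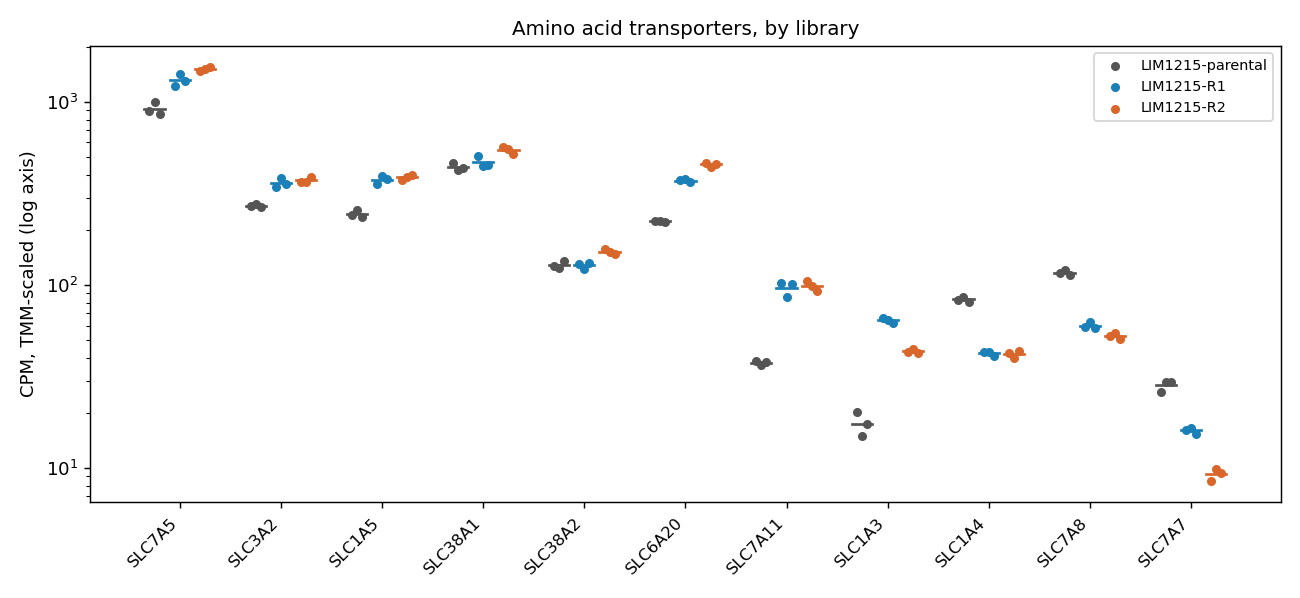
CPM of 11 amino acid carriers on a log axis, 1 point per library with a bar at the mean of each line (grey LIM1215-parental, blue LIM1215-R1, orange LIM1215-R2). SLC7A5, SLC3A2, SLC1A5, SLC6A20, SLC7A11 and SLC1A3 lie higher in all 6 resistant libraries, and SLC1A4, SLC7A8 and SLC7A7 lower in all 6.

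Among carriers of organic solutes with their own routes, SLC6A6, the taurine carrier, was at 25.7 ± 1.51, 48.6 ± 0.778 and 40.5 ± 1.71 CPM (SD, n = 3) in LIM1215-parental, LIM1215-R1 and LIM1215-R2. Against LIM1215-parental, SLC6A6 differed by 0.92 on the log2 scale in LIM1215-R1 (SE 0.0695, edgeR adjusted p = 1.99e-11) and by 0.66 in LIM1215-R2 (SE 0.0706, edgeR adjusted p = 1.91e-08). SLC6A8, the creatine carrier, was at 23.8 ± 2.42, 36.7 ± 4.18 and 34.9 ± 0.81 CPM (SD, n = 3) in LIM1215-parental, LIM1215-R1 and LIM1215-R2, with log2 fold changes of 0.63 in LIM1215-R1 and 0.56 in LIM1215-R2 (edgeR adjusted p = 1.16e-06 and 7.74e-06). Both belong to a class of 5 for neurotransmitters, peptides and organic ions, in which these 2 were higher in each resistant line and none was lower. SLC22A5, the carnitine carrier OCTN2, did not pass, at 31.7 ± 1.65, 32.5 ± 0.613 and 33.4 ± 2.36 CPM (SD, n = 3) in LIM1215-parental, LIM1215-R1 and LIM1215-R2.

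Of the 4 carboxylate carriers, SLC16A1, the lactate and pyruvate carrier MCT1, was at 268, 256 and 265 CPM in LIM1215-parental, 428, 403 and 409.99 in LIM1215-R1 and 413, 425 and 412 in LIM1215-R2. For SLC16A1 the fit gave log2 fold changes of 0.65 (LIM1215-R1, SE 0.0415, edgeR adjusted p = 5.31e-13) and 0.66 (LIM1215-R2, SE 0.0415, edgeR adjusted p = 3.87e-13). It was 1.57-fold and 1.58-fold higher, with resistant lines that overlapped each other. SLC16A3, the lactate exporter MCT4, was at 8.01 ± 1.1, 8.34 ± 0.138 and 10.8 ± 0.385 CPM (SD, n = 3) in LIM1215-parental, LIM1215-R1 and LIM1215-R2, and its log2 fold change of 0.43 in LIM1215-R2 (edgeR adjusted p = 0.00475) lost the call without parental replicate 1 (edgeR adjusted p = 0.0458), parental replicate 3 (0.0163), LIM1215-R2 replicate 1 (0.0205) or LIM1215-R2 replicate 2 (0.0221). With all libraries, SLC16A3 did not pass in the DESeq2 Wald test either (DESeq2 adjusted p = 0.0154). BSG, the chaperone of both, was tested as a partner and stood at 1146 ± 44.2, 1104 ± 42.8 and 1127 ± 11.6 CPM (SD, n = 3) in LIM1215-parental, LIM1215-R1 and LIM1215-R2, with log2 fold changes of -0.05 in LIM1215-R1 and -0.02 in LIM1215-R2 (edgeR adjusted p = 0.295 and 0.7). SLC16A9 (chr10:59650764-59710079), a member of the same family grouped with the 15 carriers of unclear or other substrate, fell. Its level was 27.5, 26.9 and 31.5 CPM in LIM1215-parental, 14.5, 14.4 and 12.6 in LIM1215-R1 and 10.05, 9.72 and 8.75 in LIM1215-R2, 2.08-fold and 3.01-fold lower, with no overlap between lines and a DEG in LIM1215-R2. SLC16A9 had a log2 fold change of -1.05 for LIM1215-R1 (SE 0.0924, edgeR adjusted p = 3.99e-10) and -1.59 for LIM1215-R2 (SE 0.0976, edgeR adjusted p = 2.53e-13). In that class 2 were higher and 6 lower in LIM1215-R1, and 1 and 6 in LIM1215-R2.

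Carriers of bicarbonate, protons and chloride included 1 DEG. Of 12 acid-base and anion exchange carriers, 5 (41.7%) were higher and 1 (8.33%) lower in LIM1215-R1, and 3 (25%) and 2 (16.7%) in LIM1215-R2. SLC4A3 (chr2:219627630-219641971), the chloride-bicarbonate exchanger AE3, was at 3.13, 4.84 and 4.52 CPM in LIM1215-parental, 16.7, 16.6 and 16.5 in LIM1215-R1 and 15.9, 15.4 and 15.8 in LIM1215-R2. All resistant libraries were 15.4 CPM or more and all parental ones were lower. Against LIM1215-parental, SLC4A3 differed by 2.0 on the log2 scale in LIM1215-R1 (SE 0.126, edgeR adjusted p = 4.17e-13) and by 1.92 in LIM1215-R2 (SE 0.126, edgeR adjusted p = 1.11e-12). SLC4A11 was at 8.09 ± 0.466, 15.4 ± 0.469 and 15.1 ± 2.38 CPM (SD, n = 3) in LIM1215-parental, LIM1215-R1 and LIM1215-R2. For SLC4A11 the fit gave log2 fold changes of 0.93 (LIM1215-R1, SE 0.117, edgeR adjusted p = 2.94e-07) and 0.90 (LIM1215-R2, SE 0.117, edgeR adjusted p = 5.36e-07). SLC9A3, the sodium-proton exchanger NHE3 of the brush border, was low and variable at 5.9, 8.16 and 6.2 CPM in LIM1215-parental, 4.97, 8.72 and 7.45 in LIM1215-R1 and 6.72, 9.29 and 9.93 in LIM1215-R2, and its lines overlapped. Of its exonic bases, 41.1% are shared with PP7080 on the same strand, which makes its counts less certain. SLC26A6, an anion exchanger of epithelia, was at 24.6 ± 0.745, 22.2 ± 0.614 and 24.2 ± 1.06 CPM (SD, n = 3) in LIM1215-parental, LIM1215-R1 and LIM1215-R2 and did not pass in either line.

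Cation-chloride cotransporters set chloride and cell volume. Of the 5 carriers of sodium, potassium, calcium and chloride, 2 were higher and 1 lower in LIM1215-R1, and 2 were higher in LIM1215-R2. SLC12A2 (chr5:128083766-128189677), the sodium-potassium-chloride importer NKCC1 of secreting epithelia, was at 388, 357 and 376 CPM in LIM1215-parental, 553, 501 and 538 in LIM1215-R1 and 663, 646 and 605 in LIM1215-R2, without overlap between any lines. SLC12A2 had a log2 fold change of 0.50 for LIM1215-R1 (SE 0.0455, edgeR adjusted p = 7.27e-10) and 0.77 for LIM1215-R2 (SE 0.0456, edgeR adjusted p = 1.2e-13). SLC12A4, the potassium-chloride exporter KCC1, was at 8.14, 8.45 and 9.3 CPM in LIM1215-parental, 16.7, 19.8 and 20.2 in LIM1215-R1 and 18.5, 19 and 15.9 in LIM1215-R2. Against LIM1215-parental, SLC12A4 differed by 1.12 on the log2 scale in LIM1215-R1 (SE 0.108, edgeR adjusted p = 2.47e-09) and by 1.04 in LIM1215-R2 (SE 0.109, edgeR adjusted p = 1.19e-08).

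Proteins that work with these carriers were read from a list of 15 tested partners, of which 6 (40%) were higher and 3 (20%) lower in LIM1215-R1, and 6 (40%) and 2 (13.3%) in LIM1215-R2. Over all genes tested 14% were higher and 13.4% lower in LIM1215-R1, and 12.3% and 11.6% in LIM1215-R2. Over genes with at least 450 counts the shares were 20% and 19.8%, and 17.9% and 16.8%, so that the lower shares of the partners were near these. The list is short and was chosen with earlier results known. CFTR, the apical chloride channel served by NKCC1, was at 33.9, 33.2 and 33.1 CPM in LIM1215-parental, 103, 95.9 and 94.8 in LIM1215-R1 and 139, 131 and 124 in LIM1215-R2. For CFTR the fit gave log2 fold changes of 1.55 (LIM1215-R1, SE 0.0615, edgeR adjusted p = 2.06e-17) and 1.97 (LIM1215-R2, SE 0.0608, edgeR adjusted p = 9.65e-20). STK39, the SPAK kinase that activates NKCC1, was at 56.3 ± 1.53, 78.7 ± 3.64 and 81.9 ± 1 CPM (SD, n = 3) in LIM1215-parental, LIM1215-R1 and LIM1215-R2, with log2 fold changes of 0.48 in LIM1215-R1 and 0.54 in LIM1215-R2 (edgeR adjusted p = 8.96e-08 and 1.15e-08). WNK1, the kinase upstream of SPAK, went the other way, at 219.5 ± 0.659, 166 ± 4.82 and 195 ± 6.35 CPM (SD, n = 3) in LIM1215-parental, LIM1215-R1 and LIM1215-R2, with log2 fold changes of -0.40 in LIM1215-R1 and -0.17 in LIM1215-R2 (edgeR adjusted p = 4.84e-08 and 0.00374). OXSR1, the close relative of SPAK, did not pass, with log2 fold changes of 0.01 in LIM1215-R1 and -0.02 in LIM1215-R2 (edgeR adjusted p = 0.9 and 0.768). FXYD3, a regulator of the sodium pump, was lower, with log2 fold changes of -0.30 in LIM1215-R1 and -0.50 in LIM1215-R2 (edgeR adjusted p = 0.000107 and 5.4e-08). ATP1B3, a subunit of the sodium pump, had log2 fold changes of 0.44 for LIM1215-R1 and 0.36 for LIM1215-R2 (edgeR adjusted p = 6.55e-09 and 2.97e-07). AQP3, a water and glycerol channel, was at 0.885, 1.16 and 0.998 CPM in LIM1215-parental, 7.61, 7.66 and 8.95 in LIM1215-R1 and 7.14, 6.69 and 7.58 in LIM1215-R2. AQP3 had a log2 fold change of 3.00 for LIM1215-R1 (SE 0.185, edgeR adjusted p = 2.88e-13) and 2.82 for LIM1215-R2 (SE 0.188, edgeR adjusted p = 1.5e-12).

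Zinc carriers held the largest fall. Of 23 metal carriers, 7 (30.4%) were higher and 5 (21.7%) lower in LIM1215-R1, and 6 (26.1%) and 5 (21.7%) in LIM1215-R2, with lower shares near those of genes with at least 450 counts. SLC39A5 (chr12:56230051-56237846), the zinc importer ZIP5 known from the basolateral side of intestinal cells, was at 26, 32.1 and 28.5 CPM in LIM1215-parental, 3.25, 3.33 and 2.63 in LIM1215-R1 and 3.27, 4.21 and 5.49 in LIM1215-R2. Every resistant library lay below every parental one, 9.36-fold and 6.69-fold apart. SLC39A5 owes its place among the members to the lines where it was high, so that its fall describes this gene and is no support for the class. Against LIM1215-parental, SLC39A5 differed by -3.23 on the log2 scale in LIM1215-R1 (SE 0.141, edgeR adjusted p = 1.77e-16) and by -2.74 in LIM1215-R2 (SE 0.133, edgeR adjusted p = 1.69e-15). Of all 11 SLC39 importers, 4 were higher and 2 lower in LIM1215-R1, and 3 and 2 in LIM1215-R2, with largest log2 fold changes of 0.50 and 0.68. SLC39A4, the apical zinc importer ZIP4 of enterocytes, was at 29.9 ± 3.29, 30.3 ± 5.2 and 31.9 ± 1.51 CPM (SD, n = 3) in LIM1215-parental, LIM1215-R1 and LIM1215-R2 and did not pass.

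Zinc exporters of the SLC30 family had members on both sides. SLC30A1, the ZnT1 exporter of the plasma membrane, was at 69.1, 62.8 and 64.6 CPM in LIM1215-parental, 107, 100.1 and 102 in LIM1215-R1 and 106, 97.4 and 86.6 in LIM1215-R2. For SLC30A1 the fit gave log2 fold changes of 0.65 (LIM1215-R1, SE 0.0646, edgeR adjusted p = 3.94e-09) and 0.56 (LIM1215-R2, SE 0.0648, edgeR adjusted p = 6.38e-08). SLC30A4, the vesicular ZnT4, was at 8.32, 9.25 and 8.93 CPM in LIM1215-parental, 4.36, 3.45 and 3.63 in LIM1215-R1 and 3.87, 3.22 and 2.55 in LIM1215-R2 (log2 fold change -1.21, SE 0.152, edgeR adjusted p = 2.86e-07 in LIM1215-R1, and log2 fold change -1.45, SE 0.156, edgeR adjusted p = 1.92e-08 in LIM1215-R2), so that the resistant lines overlapped each other but not LIM1215-parental. SLC41A1 (chr1:205789095-205813198), a magnesium carrier, was at 53.9, 54.1 and 56.6 CPM in LIM1215-parental, 104, 111 and 103 in LIM1215-R1 and 104, 114 and 108 in LIM1215-R2. SLC41A1 had a log2 fold change of 0.95 for LIM1215-R1 (SE 0.0564, edgeR adjusted p = 1.32e-13) and 0.98 for LIM1215-R2 (SE 0.0563, edgeR adjusted p = 5.89e-14). It lies 108585 bases from SLC45A3, which was higher as well. SLC11A2, the ferrous iron importer DMT1, was at 81.6 ± 0.887, 66.2 ± 2.44 and 64.7 ± 1.79 CPM (SD, n = 3) in LIM1215-parental, LIM1215-R1 and LIM1215-R2, with log2 fold changes of -0.30 in LIM1215-R1 and -0.33 in LIM1215-R2 (edgeR adjusted p = 7.27e-05 and 2.01e-05). SLC40A1, the iron exporter ferroportin, was listed at 0 and is no member.

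Mitochondrial carriers, the SLC25 family, shift metabolites over the inner membrane. Of 36, 15 were higher and 3 lower in LIM1215-R1, and 11 and 2 in LIM1215-R2, with median log2 fold changes of 0.19 and 0.14. Their summed level was 2730.1 ± 58.7, 2998 ± 79.6 and 2807 ± 27.9 CPM (SD, n = 3) in LIM1215-parental, LIM1215-R1 and LIM1215-R2. SLC25A5 was at 411, 411 and 414 CPM in LIM1215-parental, 479.8, 511 and 463 in LIM1215-R1 and 462, 455 and 458 in LIM1215-R2, a small rise (log2 fold change 0.23, SE 0.0409, edgeR adjusted p = 4.13e-05 in LIM1215-R1, and log2 fold change 0.15, SE 0.041, edgeR adjusted p = 0.00424 in LIM1215-R2), and the call in LIM1215-R2 was lost without parental replicate 1 (edgeR adjusted p = 0.0179), parental replicate 3 (0.0139) or LIM1215-R2 replicates 1, 2 or 3 (0.0200, 0.0158 and 0.0145). SLC25A4, the ADP/ATP exchanger of muscle and heart, rose as well, at 29.2, 28.2 and 24.7 CPM in LIM1215-parental, 54, 48.3 and 52.9 in LIM1215-R1 and 43.9, 49.2 and 49.97 in LIM1215-R2. Against LIM1215-parental, SLC25A4 differed by 0.92 on the log2 scale in LIM1215-R1 (SE 0.0763, edgeR adjusted p = 1.26e-10) and by 0.80 in LIM1215-R2 (SE 0.0769, edgeR adjusted p = 2.16e-09). SLC25A5 has 9 pseudogenes listed, and SLC25A6, the third of these exchangers, was listed at 0, so that the counts of the trio are uncertain.

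SLC25A24, the calcium-gated ATP-magnesium/phosphate carrier, fell, with levels of 127, 109 and 122 CPM in LIM1215-parental, 69.5, 57.2 and 67.2 in LIM1215-R1 and 71.2, 67.1 and 58.9 in LIM1215-R2. For SLC25A24 the fit gave log2 fold changes of -0.89 (LIM1215-R1, SE 0.0731, edgeR adjusted p = 1.2e-10) and -0.86 (LIM1215-R2, SE 0.073, edgeR adjusted p = 2.05e-10). SLC25A3, the phosphate carrier that feeds ATP synthase, was at 537, 527 and 542 CPM in LIM1215-parental, 615, 626 and 624 in LIM1215-R1 and 517, 513 and 532 in LIM1215-R2, higher in LIM1215-R1 (log2 fold change 0.22, SE 0.0372, edgeR adjusted p = 3.53e-05), while LIM1215-R2 overlapped LIM1215-parental (log2 fold change -0.04, SE 0.0373, edgeR adjusted p = 0.457). SLC25A1, the citrate carrier, showed the other order, at 127, 145 and 135 CPM in LIM1215-parental, 133, 148 and 132 in LIM1215-R1 and 101, 104 and 116 in LIM1215-R2, where LIM1215-R1 overlapped LIM1215-parental (log2 fold change 0.02, SE 0.0601, edgeR adjusted p = 0.813) and LIM1215-R2 was lower (log2 fold change -0.34, SE 0.0609, edgeR adjusted p = 5.69e-05).

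Nucleoside carriers take up the building blocks of nucleotides and also several nucleoside drugs. Of the 8 carriers of nucleosides, nucleotide sugars and acetyl-CoA, 3 were lower in each resistant line, and 1 was higher in LIM1215-R2. SLC29A1 (chr6:44219615-44234142), the equilibrative carrier ENT1, was at 434, 494 and 437 CPM in LIM1215-parental, 279, 333 and 299 in LIM1215-R1 and 319.7, 315 and 329.7 in LIM1215-R2, 1.5-fold and 1.41-fold lower. SLC29A1 had a log2 fold change of -0.58 for LIM1215-R1 (SE 0.0548, edgeR adjusted p = 1.66e-09) and -0.50 for LIM1215-R2 (SE 0.0547, edgeR adjusted p = 2.63e-08). SLC28A3, the concentrative carrier CNT3, lay near the edge of the choice at 3.25, 3.25 and 3.1 CPM in LIM1215-parental, 4.11, 4.21 and 2.82 in LIM1215-R1 and 2.91, 2.29 and 3.14 in LIM1215-R2 and its lines overlapped. SLC33A1, the acetyl-CoA carrier of the endoplasmic reticulum, was at 52.7, 46.7 and 51.3 CPM in LIM1215-parental, 54.1, 52.2 and 54.4 in LIM1215-R1 and 71.6, 65.1 and 68.6 in LIM1215-R2, and LIM1215-R2 alone stood apart (log2 fold change 0.09, SE 0.0632, edgeR adjusted p = 0.3 in LIM1215-R1, and log2 fold change 0.44, SE 0.0621, edgeR adjusted p = 1.68e-06 in LIM1215-R2), a member with 21.1% of its exonic bases shared with another annotated gene on the same strand.

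Phosphate importers SLC20A1 and SLC20A2, known as PiT1 and PiT2, were at 55.9 ± 2.96, 70.1 ± 0.907 and 69.4 ± 1.98 CPM (SD, n = 3) in LIM1215-parental, LIM1215-R1 and LIM1215-R2 and at 59 ± 0.969, 87 ± 2.26 and 67.2 ± 2.28 CPM (SD, n = 3) in LIM1215-parental, LIM1215-R1 and LIM1215-R2. SLC20A1 was higher in both lines. Against LIM1215-parental, SLC20A1 differed by 0.32 on the log2 scale in LIM1215-R1 (SE 0.0583, edgeR adjusted p = 5.94e-05) and by 0.31 in LIM1215-R2 (SE 0.0583, edgeR adjusted p = 0.000118). SLC20A2 was higher in LIM1215-R1 (log2 fold change 0.56, SE 0.0554, edgeR adjusted p = 4.14e-09) and did not pass in LIM1215-R2 (log2 fold change 0.19, SE 0.0563, edgeR adjusted p = 0.0109). That call is near the threshold, and SLC20A2 passed in LIM1215-R2 under 4 alternatives, with the lowest edgeR adjusted p (0.00613) under the replicate block. SLC26A2, a sulfate carrier, was at 4.63 ± 0.55, 7.44 ± 0.724 and 6.45 ± 1.52 CPM (SD, n = 3) in LIM1215-parental, LIM1215-R1 and LIM1215-R2. It was higher in LIM1215-R1 (log2 fold change 0.69, SE 0.161, edgeR adjusted p = 0.00117) and did not pass in LIM1215-R2 (log2 fold change 0.48, SE 0.164, edgeR adjusted p = 0.0244) or between the resistant lines (log2 fold change -0.20, SE 0.153, edgeR adjusted p = 0.454). Its call in LIM1215-R1 was lost without parental replicate 1 (edgeR adjusted p = 0.0112) or LIM1215-R1 replicate 3 (0.0108), and it passed in LIM1215-R2 without LIM1215-R2 replicate 3 (0.00969).

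Of 11 vitamin, choline and heme carriers, 2 were higher and 2 lower in LIM1215-R1, and 1 and 2 in LIM1215-R2. SLC52A2 was higher in both (log2 fold changes 0.30 and 0.29). Its calls were lost without parental replicate 1 (edgeR adjusted p = 0.0121 and 0.0189) or parental replicate 3 (0.0108 and 0.0165). In LIM1215-R2 the call was also lost without LIM1215-R2 replicate 3 (0.0215). SLC19A1, higher in LIM1215-R1 (log2 fold change 0.25), lost its call in several settings, among them without parental replicate 1 (edgeR adjusted p = 0.0522). SLC49A4 was at 45.3, 47 and 46.2 CPM in LIM1215-parental, 23, 23.8 and 23 in LIM1215-R1 and 24.1, 21.9 and 22.7 in LIM1215-R2, 1.98-fold and 2.02-fold lower. For SLC49A4 the fit gave log2 fold changes of -0.99 (LIM1215-R1, SE 0.0705, edgeR adjusted p = 6.42e-12) and -1.01 (LIM1215-R2, SE 0.0707, edgeR adjusted p = 4e-12). SLC44A1, a choline carrier, was at 135 ± 3.92, 92.5 ± 5.77 and 95.5 ± 2.26 CPM (SD, n = 3) in LIM1215-parental, LIM1215-R1 and LIM1215-R2. SLC44A1 had a log2 fold change of -0.54 for LIM1215-R1 (SE 0.0538, edgeR adjusted p = 3.94e-09) and -0.50 for LIM1215-R2 (SE 0.0537, edgeR adjusted p = 1.97e-08). SLC5A6, the multivitamin carrier for biotin and pantothenate, was at 137 ± 5.53, 144 ± 8.54 and 149 ± 3.31 CPM (SD, n = 3) in LIM1215-parental, LIM1215-R1 and LIM1215-R2, and the folate carrier SLC46A1 at 71.2 ± 3.34, 80.4 ± 7.18 and 79.4 ± 1.11 CPM (SD, n = 3) in LIM1215-parental, LIM1215-R1 and LIM1215-R2, and neither passed in either line. For SLC46A1 in LIM1215-R1 (log2 fold change 0.18, SE 0.0621, edgeR adjusted p = 0.0268) the call turned with the replicate block (edgeR adjusted p = 0.00836) and without parental replicate 2 (0.00939) or LIM1215-R1 replicate 1 (0.00332). Of 4 lipid and bile acid carriers, SLC27A4, the fatty acid carrier FATP4, was at 94.7, 104 and 89.2 CPM in LIM1215-parental, 53, 57.2 and 61.7 in LIM1215-R1 and 55.2, 55.9 and 54.2 in LIM1215-R2 (log2 fold change -0.74, SE 0.0647, edgeR adjusted p = 3.37e-10 in LIM1215-R1, and log2 fold change -0.80, SE 0.0649, edgeR adjusted p = 8.47e-11 in LIM1215-R2), and SLC27A2, an acyl-CoA synthetase of the same family, was higher in LIM1215-R1 (log2 fold change 0.31, SE 0.0526, edgeR adjusted p = 2.49e-05).

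LIM1215-R2 was then compared with LIM1215-R1, to see where the selections differ. Of the 159 members, 7 were higher (4.40%) and 13 lower (8.18%) in LIM1215-R2, and 139 did not pass. Over all genes tested 3.39% were higher and 3.77% lower, and over genes with at least 450 counts 5.41% and 5.46%. No member was a DEG in edgeR, also at an unadjusted p under 0.05 (0 members of that size, of 49 with such a p) or in DESeq2 (0), and the largest difference was 0.80 in size on the log2 scale. Among all genes tested 0.215% were DEGs higher and 0.55% lower, and among genes with at least 450 counts 0.101% and 0.265%. The count of higher members was 4 without LIM1215-R2 replicate 1 or replicate 2 and 11 without parental replicate 2, and that of lower members was 8 without LIM1215-R2 replicate 2. The median log2 fold change of the members was -0.011, against -0.0011 over all genes tested.

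The glucose carriers SLC2A3 and SLC2A1 and the glutamate carrier SLC1A3 were lower in LIM1215-R2 than in LIM1215-R1. SLC2A3 was 1.44-fold lower (log2 fold change -0.53, SE 0.0707, edgeR adjusted p = 5.56e-06), SLC2A1 1.26-fold (log2 fold change -0.33, SE 0.0463, edgeR adjusted p = 1.04e-05) and SLC1A3 1.48-fold (log2 fold change -0.56, SE 0.0723, edgeR adjusted p = 2.99e-06), and in each the libraries of both lines did not overlap. SLC7A7 showed the largest difference, 1.74-fold (log2 fold change -0.80, SE 0.101, edgeR adjusted p = 2.51e-06), followed in size by SLC1A3 and SLC16A9 (log2 fold change -0.54, SE 0.107, edgeR adjusted p = 0.000871). SLC20A2 (log2 fold change -0.37, SE 0.0549, edgeR adjusted p = 2.12e-05) and the mitochondrial carriers SLC25A1 (log2 fold change -0.37, SE 0.0609, edgeR adjusted p = 0.000112) and SLC25A3 (log2 fold change -0.26, SE 0.0372, edgeR adjusted p = 1.72e-05) were lower too.

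Higher in LIM1215-R2 were SLC5A3 (log2 fold change 0.38, SE 0.0673, edgeR adjusted p = 0.000259), SLC33A1 (log2 fold change 0.35, SE 0.0618, edgeR adjusted p = 0.000203), SLC6A20 (log2 fold change 0.29, SE 0.0403, edgeR adjusted p = 7.63e-06) and SLC12A2 (log2 fold change 0.27, SE 0.0451, edgeR adjusted p = 0.000139). The remaining 3 were amino acid carriers with smaller differences, SLC38A2 (log2 fold change 0.24, SE 0.051, edgeR adjusted p = 0.00149), SLC38A1 (log2 fold change 0.22, SE 0.0478, edgeR adjusted p = 0.00228) and SLC7A5 (log2 fold change 0.21, SE 0.0491, edgeR adjusted p = 0.00451). SLC38A2 lost its call without LIM1215-R2 replicate 1 or 2 (edgeR adjusted p = 0.0207 and 0.0105). SLC38A1 lost it without LIM1215-R1 replicate 2 or 3 (0.0117 and 0.0341) or LIM1215-R2 replicate 1 or 2 (0.0325 and 0.0227 by edgeR). SLC7A5 lost it without LIM1215-R1 replicate 1 or 3 (0.0283 and 0.0366) or any 1 of the LIM1215-R2 libraries (0.0157, 0.0297 and 0.0278 by edgeR). With all libraries, SLC7A5 also lost the call in the DESeq2 Wald test (DESeq2 adjusted p = 0.01004). The same held with at least 10 counts asked of every library (edgeR adjusted p = 0.0161). SLC5A1, the member with the largest rise, did not pass between the resistant lines (log2 fold change 0.18, SE 0.0945, edgeR adjusted p = 0.235), nor did SLC39A5 (log2 fold change 0.48, SE 0.187, edgeR adjusted p = 0.0939) or SLC7A11 (log2 fold change 0.03, SE 0.0632, edgeR adjusted p = 0.852).

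**Figure D5:**
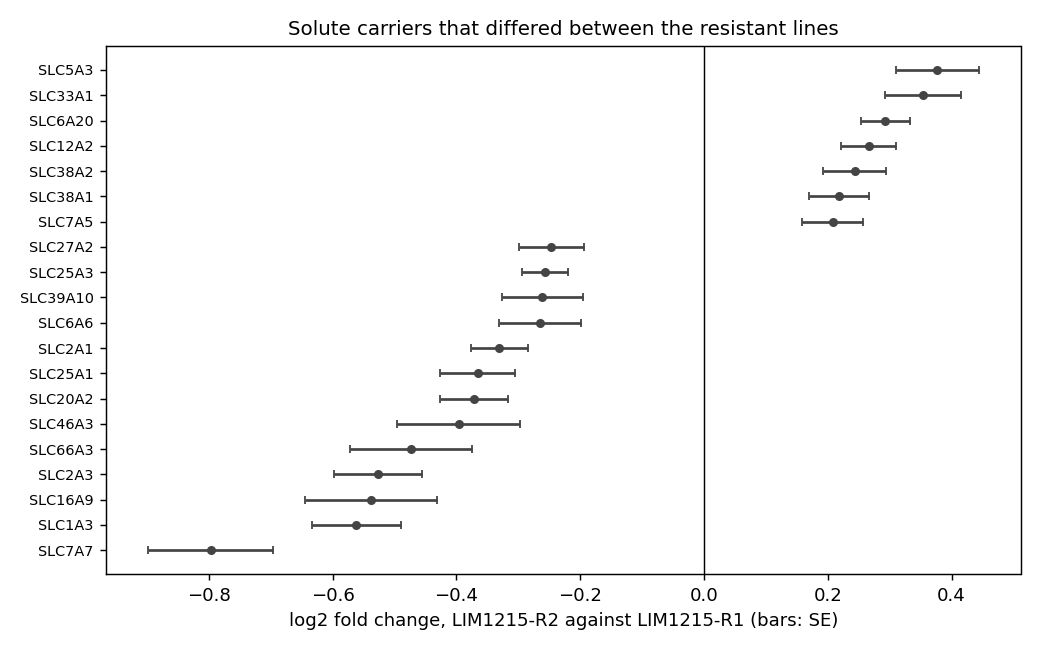
Log2 fold change of LIM1215-R2 against LIM1215-R1 for the 20 members that passed (points) with the standard error of the fit (bars), in order of size. The 13 values below 0 run from -0.80 (SLC7A7) to -0.25 (SLC27A2), and the 7 above 0 from 0.21 (SLC7A5) to 0.38 (SLC5A3).

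Solute carriers outside the choice were counted beside the members. Of 55 numbered genes with fewer than 450 counts that were tested, 11 (20%) were higher and 8 (14.5%) lower in LIM1215-R1, and 8 (14.5%) and 5 (9.09%) in LIM1215-R2, beside 14% and 13.4%, and 12.3% and 11.6%, of all genes tested. DEGs among them numbered 9 higher (16.4%) and 6 lower (10.9%) in LIM1215-R1, and 7 (12.7%) and 5 (9.09%) in LIM1215-R2, larger shares than among the members. Over all genes tested the DEG shares were 3.24% and 1.91% in LIM1215-R1, and 2.63% and 2.19% in LIM1215-R2. Over genes with at least 450 counts they were smaller, 2.09% and 0.86%, and 1.91% and 1.08%. No background share given here covers only the tested genes with fewer than 450 counts. The part of low counts in this contrast was not tested. Of 26 tested solute carrier genes with letters in their names, SLCO genes among them, 5 (19.2%) were higher and 6 (23.1%) lower in LIM1215-R1, and 3 (11.5%) and 5 (19.2%) in LIM1215-R2.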

How the data were processed

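PolyA RNA was sequenced from a stranded kit, and the authors deposited raw read counts per gene from STAR and HTSeq 0.9.1 on hg38. The annotation is not given in the sources used here. Counts were normalised by TMM and tested with edgeR 4.0.16 in R 4.3.3, in 1 fit of 9 libraries and 3 groups, on 19102 genes with at least 10 counts, with thresholds as in the study's methods (adjusted p 0.01, log2 fold change 1.5). Alternatives, among them DESeq2 1.42.0, are given in the closing section. Standard errors were derived from the fit. The fit was tested on simulated data.

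Members and lists were chosen with earlier results of these data known. Members were named if they were DEGs, the top 2 of a substrate class by CPM, textbook transporters or at the edge of the choice (50 genes), and 18 more were named after their values were seen. Substrate classes were assigned by hand. Transcript lengths came from GENCODE 44, positions and promoters from RefSeq (GRCh38.p14), with no position for SLC22A18. Some genes are not reported here. Counts are uncertain for 22 members with listed pseudogenes and 7 members that share over 10% of exonic bases with a gene on the same strand. Library depth limits precision, and counts carry no molecular identifiers.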

Additional observations from a re-analysis of the deposited data

Results flagged for a closer look

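The test of LIM1215-R2 against LIM1215-R1 compares the shifts of both lines from the shared parental line, and it drew attention to the 20 members that passed it (edgeR adjusted p of at most 0.01). On the log2 scale the lower ones were SLC7A7 (-0.80), SLC1A3 (-0.56), SLC16A9 (-0.54), SLC2A3 (-0.53), SLC66A3 (-0.47), SLC46A3 (-0.40), SLC20A2 (-0.37), SLC25A1 (-0.37), SLC2A1 (-0.33), SLC6A6 (-0.26), SLC39A10 (-0.26), SLC25A3 (-0.26) and SLC27A2 (-0.25). The higher ones were SLC7A5 (0.21), SLC38A1 (0.22), SLC38A2 (0.24), SLC12A2 (0.27), SLC6A20 (0.29), SLC33A1 (0.35) and SLC5A3 (0.38). Beside the amino acid carriers described with that comparison, 5 more lost their call when a library was left out. The adjusted p of SLC66A3 was 0.0107 without LIM1215-R2 replicate 2, and that of SLC27A2 was 0.0120 and 0.0112 without LIM1215-R2 replicate 2 or 3. SLC46A3 and SLC6A6 lost the call whichever single library of the resistant lines was left out, with edgeR adjusted p up to 0.0568 and 0.0400. For SLC39A10 the same held except for LIM1215-R1 replicate 2, with edgeR adjusted p up to 0.0590. SLC39A10, SLC46A3 and SLC6A6 also lost it when scaled by total counts only (edgeR adjusted p = 0.0124, 0.0108 and 0.0122), and SLC46A3 in the DESeq2 Wald test (DESeq2 adjusted p = 0.0131).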

How the results depend on the processing

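Against LIM1215-parental, the numbers of members higher and lower stayed within 1.5 times the main ones under every alternative scaling, filter and tool tried, and no named member changed direction past the threshold. With a log2 fold change of 1 in place of 1.5, DEGs numbered 9 higher and 4 lower in LIM1215-R1 and 8 higher and 6 lower in LIM1215-R2. Leaving out 1 library at a time gave 42 to 56 members higher and 24 to 29 lower in LIM1215-R1, and 40 to 55 and 22 to 29 in LIM1215-R2. Between the resistant lines it gave 4 to 11 higher and 8 to 13 lower. Deviations from the line means correlated at -0.179 to 0.534 (mean 0.117) over the 9 same-numbered pairs of libraries and at -0.521 to 0.390 (mean -0.057) over the 18 others. As only 4 of the 9, among them all pairs of replicates 1, were over 0.1, the numbers were not taken to pair the samples, although part of them deviated together. With the replicate block, members higher between the resistant lines numbered 12 and members lower 14, with 57 and 29 in LIM1215-R1 and 53 and 31 in LIM1215-R2 against LIM1215-parental. Of the 68 named members, 8, 10 and 10 changed their call in at least 1 setting in LIM1215-R1, LIM1215-R2 and between the lines, and the cause was not tested.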
